A study of Mus musculus with 4 samples.

Results

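The genes described here are 49 genes of the extracellular matrix and its turnover: matrix metalloproteinases and their tissue inhibitors (TIMPs), membrane-anchored ADAM proteases, collagens, matrix glycoproteins and proteoglycans, cross-linking enzymes, and genes of hyaluronan synthesis and the cell surface. They were taken by name, but with earlier results of these data known, so the list is not a blind one. The 4 one-color whole mouse genome arrays carried 39429 probes, of which 27427 could be assigned to 20832 genes. A probe was assigned through its RefSeq accession, and where a gene had several probes the brightest was used. Of the 49 genes, 48 had at least 1 probe (63 probes together), and Mmp27 had none under its accession.

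The arrays measured RNA of BALF cells, the cells washed out of the airspaces of the lung. There were 2 arrays of wild-type mice and 2 of mice labelled S1pr2-/-, which carry a disruption of the gene for the sphingosine-1-phosphate receptor S1PR2 in every tissue. Per the methods, both genotypes were adult littermates of a mixed strain background, and per the treatment record both received bleomycin by intraperitoneal injection at 0.035 U/g with 2 injections a week. The extraction record places the collection on day 22 and names the route as instillation instead. The comparison asks how loss of S1PR2 alters gene expression in these cells under bleomycin, a drug that provokes lung fibrosis. There were no arrays of mice without bleomycin, so what bleomycin itself did to these genes is not measured here. The 2 arrays of a genotype came from separate RNA samples, but the number of mice behind a sample is not given in the sources used here, so the p-values measure only the spread between these samples.

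Metalloproteinases are secreted or membrane-bound zinc enzymes that cleave collagens, elastin and other matrix proteins, and TIMPs bind to their active site and block it. ADAM proteases shed the outer domains of membrane proteins. In the fibrotic lung most fibrillar collagen is made by fibroblasts and myofibroblasts, whereas alveolar macrophages, the main cells of BALF, are known as a source of metalloproteinases, fibronectin and osteopontin, and also take up and degrade matrix fragments.

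A value is given as the log2 of the processed intensity over the 75th percentile of its array, so that 0 is the brightness of the probe at the 75th percentile, with a floor at 0.01 of that percentile. Differences are those of the arrays labelled S1pr2-/- minus the wild-type arrays. The 75th percentile itself was 2489 to 2817 intensity units, the share of probes well above background ranged from 67.6% to 72.2%, and log2 values correlated at 0.9946 within the wild-type pair, at 0.9960 within the pair labelled S1pr2-/- and at 0.9926 to 0.9942 across genotypes. The probe of the targeted gene S1pr2 went against the labels, with -0.13 and -0.16 in wild-type and 2.67 and 2.54 in the pair labelled S1pr2-/- (log2 difference 2.75, standard error 0.072, adjusted p = 0.333 from limma). Whether this probe lies in the disrupted stretch is not given in the sources used here, and each direction below rests on the labels. The sample records call the tissue alveolar macrophages, and 12 of 12 marker genes of these cells were well above background on all 4 arrays, as were 5 of 7 eosinophil, 10 of 12 neutrophil and 7 of 8 T cell markers. In such a mixture, fewer cells of a type and less RNA per cell cannot be told apart.

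Many of these proteases were measured by probes to genes that lie side by side. The windows below, from 75 to 6 bases before the transcription start (RefSeq, GRCm38.p6, plus strand), are shown because 5 of these 6 neighboring metalloproteinase genes hold a match to the AP-1 motif close to the start; the matching letters are in capitals.
Mmp3, chr9:7445747-7445816: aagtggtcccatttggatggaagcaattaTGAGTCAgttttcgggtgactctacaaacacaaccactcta
Mmp7, chr9:7692015-7692084: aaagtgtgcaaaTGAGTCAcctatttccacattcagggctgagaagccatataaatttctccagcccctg
Mmp10, chr9:7502267-7502336: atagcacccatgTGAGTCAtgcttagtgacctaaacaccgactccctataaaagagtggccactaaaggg
Mmp12, chr9:7347299-7347368: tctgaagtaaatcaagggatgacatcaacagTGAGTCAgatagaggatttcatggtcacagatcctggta
Mmp13, chr9:7272439-7272508: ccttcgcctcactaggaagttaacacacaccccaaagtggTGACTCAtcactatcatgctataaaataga
Mmp8, chr9:7558354-7558423: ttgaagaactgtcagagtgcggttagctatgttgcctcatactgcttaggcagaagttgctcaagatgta

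AP-1 is a family of dimeric transcription factors that respond to growth factor and stress signals. The motif TGANTCA, which reads the same on both strands, began 46 bases before the start of Mmp3, 63 before that of Mmp7 and of Mmp10, 44 before that of Mmp12 and 35 before that of Mmp13. For Mmp8 there was no match in the 250 bases before the start. Within 250 bases before a start it stood in 7 of the 35 genes with a promoter entry (20.0%), the others being Adam19 and Col6a1, and in 7.82% of 27025 genes in the table. The motif of STAT6, TTC and GAA with 4 bases of any kind between them, searched on both strands, stood in 3 of the 35 (Adam19, Bgn and Cd44) and in 6.76% of all genes. The 6 genes shown are relatives that share ancestry, and a match describes letters, not binding. Of the 7 genes with the AP-1 match, Mmp12, Mmp13 and Adam19 were lower on both arrays labelled S1pr2-/-, as described below. Mmp10, close to the floor, and Col6a1 were higher on both. Mmp3, at the floor on all arrays, and Mmp7 were not tested. A link between the motif and these values was not tested.

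Of the 49 genes, 39 could be tested, 38 of them with a probe well above background on all 4 arrays. For 16 of the 39, both arrays labelled S1pr2-/- lay below both wild-type arrays (41.0%, against 21.8% of all 27161 probes tested), for 8 they lay above (20.5%, against 20.0%) and for 15 they overlapped. At an unadjusted p under 0.05 in limma, 7 were lower, which is 17.9% against 5.59% of all probes, and 1 was higher, which is 2.56% against 3.99%. None of the 39 passed an adjusted p of 0.05, nor did any of the 27161 probes (0%), and an exact two-sided permutation test of 2 arrays against 2 cannot go below p = 0.333. The median difference was -0.04, beside -0.0030 over all probes. Because these genes were chosen with earlier results of these data known, the shares in this paragraph describe the list and do not test it. By size, 6 genes were at least 1.5-fold lower (15.4%, against 3.62% of all probes) and 5 at least 1.5-fold higher (12.8%, against 1.15%); with an unadjusted p under 0.05 as well, these were 3 (1.62% of all probes) and 1 (0.486%). These genes also varied more between arrays of a genotype than probes in general: the mean absolute log2 gap was 0.260 within the wild-type pair and 0.370 within the pair labelled S1pr2-/-, beside 0.209 and 0.199 over all probes tested.

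**Figure D1:**
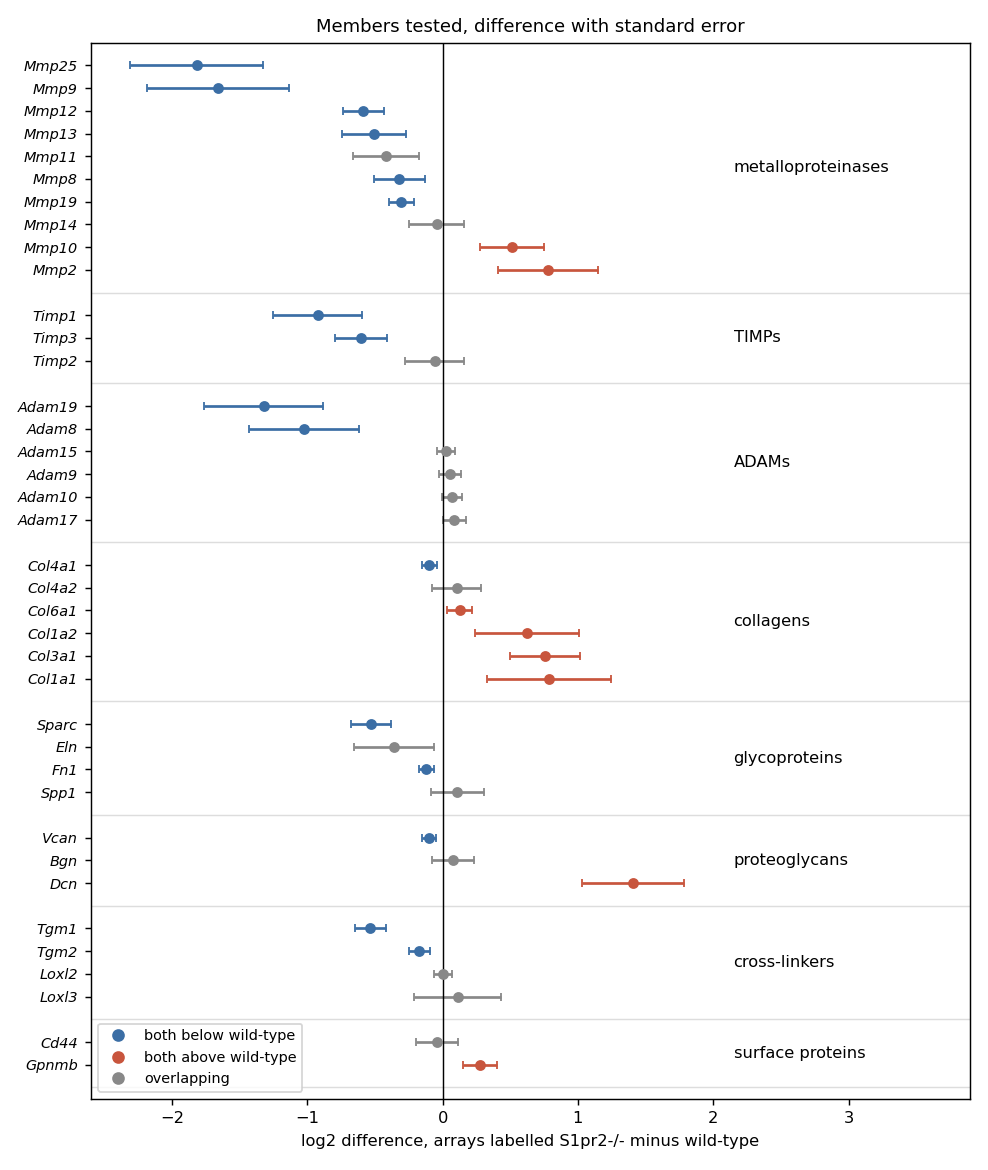
Log2 difference of each tested gene, arrays labelled S1pr2-/- minus wild-type arrays, with the standard error of the limma fit as bars, grouped by role; the color gives whether both arrays labelled S1pr2-/- lay below, above or among the wild-type arrays. The lowest values are those of Mmp25 (-1.82) and Mmp9 (-1.66) and the highest that of Dcn (1.41); Col5a1, at the floor on all 4 arrays, is not drawn.

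Metalloproteinases were the largest group and lay mostly on the lower side. Of the 13, 10 were tested. On both arrays labelled S1pr2-/- 6 were lower and 2 higher (21.8% and 20.0% of all probes tested), and the median difference was -0.37. At an unadjusted p under 0.05 in limma, 4 were lower (5.59% of all probes) and 0 were higher (3.99%). Mmp25, a membrane-anchored enzyme known from neutrophils, had log2 values of -2.19 and -1.02 in wild-type against -3.20 and -3.64 in the pair labelled S1pr2-/-. The groups did not overlap, although the wild-type arrays were themselves 1.16 apart, and the difference was -1.82 (standard error 0.490, 3.52-fold lower, unadjusted p = 0.0293, adjusted p = 0.514). Without wild-type replicate 2 it was -1.23. Mmp9, the gelatinase stored in neutrophil granules and also made by macrophages, gave -4.64 and -4.09 in wild-type against -5.42 and -6.63. Both arrays labelled S1pr2-/- were lower, replicate 2 reaching the floor, and the difference was -1.66 (standard error 0.524, 3.16-fold lower, unadjusted p = 0.0447, adjusted p = 0.519). The size of the Mmp9 difference depended on how dim signals were treated: it was -0.87 with the percentile taken over detected probes, -0.82 with normexp background correction and -1.05 without S1pr2-/- replicate 2.

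Mmp12, the macrophage elastase, gave values of -0.21 and -0.08 in wild-type against -0.56 and -0.90. The groups were apart by more than either was spread, with a difference of -0.58 (standard error 0.149, unadjusted p = 0.0251, adjusted p = 0.511), and a second probe of Mmp12 gave -0.78. Mmp19, an enzyme that cleaves basement membrane proteins, had 1.20 and 1.24 against 0.83 and 1.01. Its difference of -0.30 was small but lay outside the spread of both groups (standard error 0.091, unadjusted p = 0.0394, adjusted p = 0.518). Mmp2, the other gelatinase, ran the opposite way: it read -3.64 and -4.49 in wild-type and -3.09 and -3.48 in the pair labelled S1pr2-/-. These groups did not overlap either, but the gap between the wild-type arrays (0.85) exceeded the difference of 0.78 (standard error 0.370, unadjusted p = 0.118, adjusted p = 0.580), which was 0.35 without wild-type replicate 2.

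Among the other metalloproteinases, the collagenases Mmp8 (difference -0.32) and Mmp13 (-0.51) were lower on both arrays labelled S1pr2-/- and the stromelysin Mmp10 (0.51) was higher on both, each at an unadjusted p over 0.05. Mmp10 sat close to the floor, with values from -6.33 to -5.41, and its difference was 0 with the percentile over detected probes. The membrane-type Mmp14, an activator of pro-MMP2, overlapped between the genotypes at -2.32 and -2.56 against -2.26 and -2.70, as did Mmp11 (difference -0.42). The stromelysin Mmp3 was well above background on none of the arrays, and matrilysin, Mmp7, was well above it on wild-type replicate 1 and S1pr2-/- replicate 2 alone, so neither was tested.

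The summed signal of neutrophil markers was lower as well on the arrays labelled S1pr2-/-. In multiples of the 75th percentile it was 89.9 and 101 in wild-type against 74.8 and 68.0. Of the 10 markers tested 3 were lower at an unadjusted p under 0.05 (Retnlg by -4.81, Cxcr2 by -0.59, Csf3r by -0.28), beside 5.59% of all probes. At that threshold 0 were higher, and the median was -0.09. S100a9 was lower on both as well (-1.46, unadjusted p = 0.152 in limma), with signals of 11.3 and 13.4 against 8.90 and 2.24. The largest part of the sum was the single probe of Csf3r, at 48.5 and 44.2 against 36.9 and 39.4. Other markers ran the other way or stayed near 0, such as Ltf (0.36), S100a8 (0.25), Elane (0.15, higher on both), Mpo (-0.06) and Lcn2 (-0.02). The granule gene Ngp was at the floor on all 4 arrays. The part of these markers in the values of Mmp8, Mmp9 and Mmp25 was not tested.

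**Figure D2:**
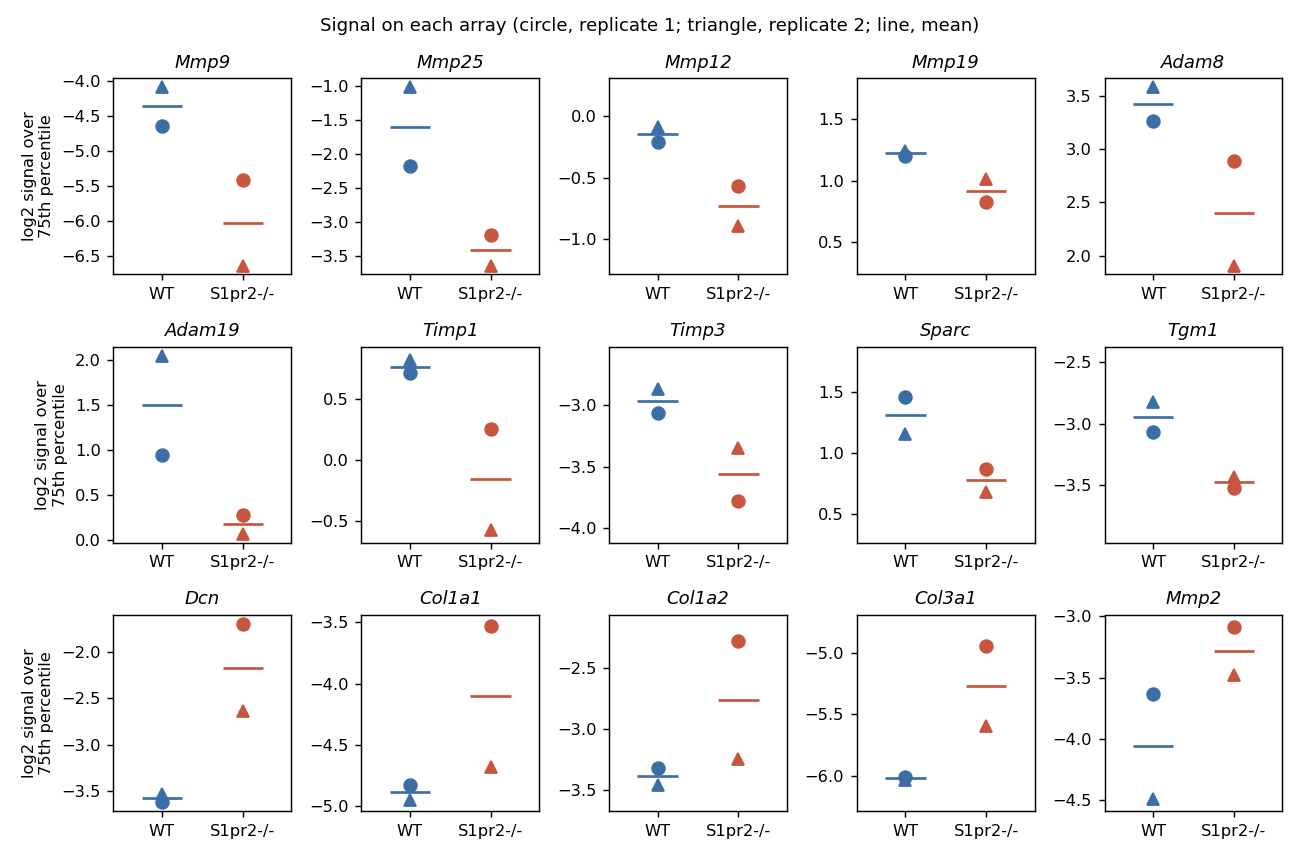
Log2 signal over the 75th percentile on each array for the genes that differed by 1.5-fold or more or had an unadjusted p under 0.05 (circles, replicate 1; triangles, replicate 2; lines, means of 2 arrays; vertical scales differ between panels). In each panel the groups do not overlap; for Col1a1 and Col1a2 S1pr2-/- replicate 2 lies close to the wild-type arrays, and for Mmp25 and Adam19 wild-type replicate 2 lies well above replicate 1.

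Of the 3 inhibitors, 2 were lower on both arrays labelled S1pr2-/- (21.8% of all probes tested) and Timp2 overlapped. Timp1, an inducible inhibitor often raised in fibrosis, read 0.71 and 0.82 in wild-type against 0.25 and -0.57. Both arrays labelled S1pr2-/- were lower, but they were 0.82 apart, and the difference of -0.92 (standard error 0.329, unadjusted p = 0.0612, adjusted p = 0.534) was -0.51 without S1pr2-/- replicate 2. Timp3, the inhibitor that binds to the matrix itself, had -3.06 and -2.86 against -3.78 and -3.35, a difference of -0.60 with no overlap (standard error 0.191, unadjusted p = 0.0455, adjusted p = 0.519). Timp2, which takes part in the activation of MMP2 by MMP14, was among the 5 of the 49 genes with the highest probe signal, at 5.45 and 5.19 against 5.50 and 5.02. Its groups overlapped, the difference was -0.06 (95% confidence interval -0.72 to 0.60), and a second probe gave 0.20.

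ADAM proteases split into a pair with large differences and 4 that were close to 0. Adam19, which sheds neuregulin and other growth factor precursors, gave 0.95 and 2.05 in wild-type against 0.28 and 0.07. The wild-type arrays were more than 1 apart, both above the others, and the difference was -1.32 (standard error 0.439, 2.50-fold lower, unadjusted p = 0.0511, adjusted p = 0.521); it was -0.77 without wild-type replicate 2. Adam8, a protease of leukocytes, had 3.26 and 3.58 against 2.89 and 1.91. Here it was the arrays labelled S1pr2-/- that spread, 0.98 apart, with a difference of -1.02 (standard error 0.406, 2.03-fold lower, unadjusted p = 0.0797, adjusted p = 0.544) that was -0.53 without S1pr2-/- replicate 2. Adam9, Adam10, Adam15 and Adam17, the last known as the sheddase of tumor necrosis factor, overlapped between genotypes, with differences from 0.02 to 0.09. Adam15, also among these 5, had values between 5.02 and 5.11 on the 4 arrays, and the interval of its difference was -0.18 to 0.23.

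Eosinophils, which can hold ADAM8, were the marker list with the lowest median. Their summed signal was 5.87 and 14.4 in wild-type against 2.35 and 3.70. Most of the sum on the arrays labelled S1pr2-/- was the single probe of Ear6, at 3.50 and 6.65 against 2.23 and 3.48. Of the 6 markers tested 6 were lower on both arrays labelled S1pr2-/- (21.8% of all probes). At an unadjusted p under 0.05, 5 of them were lower (5.59% of all probes), and the median difference was -4.50. On the wild-type arrays the sum was higher on replicate 2, as were the values of Adam8, Adam19, Mmp9 and Mmp25. Within the pair labelled S1pr2-/- the sum was again higher on replicate 2, but these 4 genes were lower there than on replicate 1. The part of the eosinophil markers in these values was not tested.

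**Figure D3:**
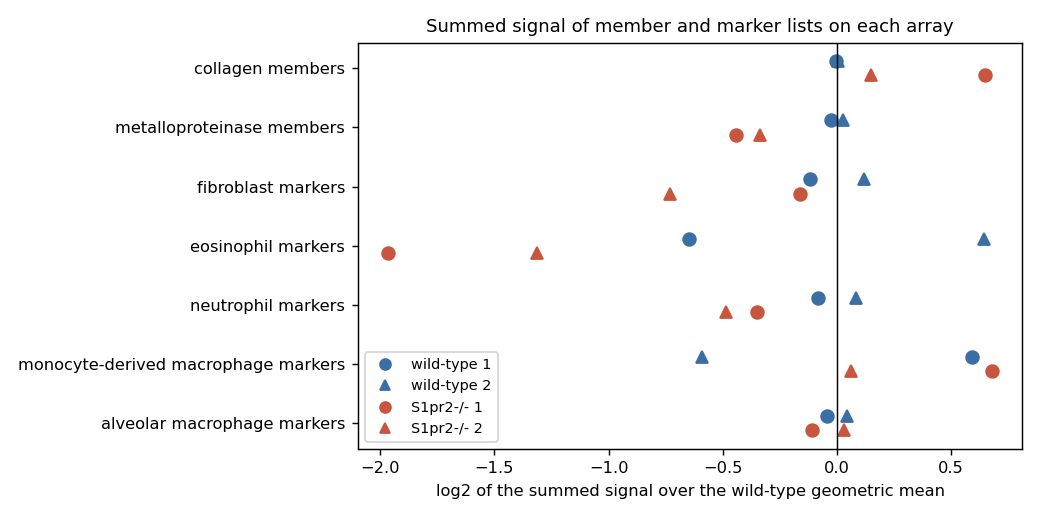
Log2 of the summed signal of a list on each array over the geometric mean of the wild-type arrays, for the collagens and metalloproteinases described here and for marker lists of 5 cell types (blue, wild-type; red, labelled S1pr2-/-; circles, replicate 1; triangles, replicate 2). The collagen sum is highest on S1pr2-/- replicate 1 (0.511, beside 0.362 on replicate 2 and 0.325 and 0.327 on the wild-type arrays). The metalloproteinase sum is 4.21 and 4.53 against 5.61 and 5.82. Most of it is Mmp19, Mmp8 and Mmp12 (2.30, 1.68 and 0.86 on wild-type replicate 1), while Mmp9 and Mmp25 add 0.04 and 0.22 there. Alveolar macrophage markers stay between 699.8 and 779.

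The fibrillar collagens Col1a1, Col1a2 and Col3a1 were dim in these cells and lay on the higher side. Of the 7 collagens 4 were higher and 1 lower on both arrays labelled S1pr2-/- (20.0% and 21.8% of all probes tested). At an unadjusted p under 0.05 in limma, 0 were higher (3.99% of all probes) and 0 lower (5.59%). The median difference of the collagens was 0.13. Col1a1, which encodes a chain of type I collagen, the main collagen of scar, had -4.82 and -4.95 in wild-type against -3.53 and -4.68. Both of the latter were higher, by very different amounts, and the difference was 0.79 (standard error 0.456, unadjusted p = 0.175, adjusted p = 0.623). Col1a2, the partner chain, read -3.32 and -3.45 against -2.28 and -3.25, a difference of 0.62 (standard error 0.384, adjusted p = 0.636). Col3a1, type III collagen, gave -6.01 and -6.04 against -4.94 and -5.59, a difference of 0.76 (standard error 0.261, unadjusted p = 0.0563, adjusted p = 0.526). In all of these it was S1pr2-/- replicate 1 that stood highest. Without that array the differences were 0.21 for Col1a1, 0.14 for Col1a2 and 0.43 for Col3a1, and with the percentile over detected probes that of Col3a1 was 0.16.

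The basement membrane chains Col4a1 (difference -0.10) and Col4a2 (0.10) and the microfibrillar Col6a1 (0.13) differed by less than 0.15 each. Col5a1, a chain that helps to start fibril assembly, was well above background on both arrays labelled S1pr2-/- and on neither wild-type array, yet all its signals, 0.00409 and 0.00771 of the 75th percentile against 0.00897 and 0.00715, were under the floor of 0.01, so no fold is given and it counts among the 15 overlapping genes.

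Dcn, the small proteoglycan decorin, which binds collagen fibrils and is a typical product of fibroblasts, was the gene with the largest difference on the higher side. It had -3.62 and -3.53 in wild-type against -1.69 and -2.64. The wild-type arrays were 0.09 apart and the others 0.95, with no overlap, and the difference was 1.41 (standard error 0.376, 95% confidence interval 0.27 to 2.55, 2.66-fold higher, unadjusted p = 0.0283, adjusted p = 0.514). Without S1pr2-/- replicate 1 it was 0.94. Among its relatives, biglycan, Bgn, overlapped (difference 0.08), lumican, Lum, was well above background on none of the arrays, and the large proteoglycan versican, Vcan, had a difference of -0.10 from its brightest probe and 0.44 from another.

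The summed signal of fibroblast markers was not higher on the arrays labelled S1pr2-/-. It was 10.3 and 12.1 in wild-type against 9.95 and 6.70, so that it was lowest on S1pr2-/- replicate 2. Most of this sum was the signal of a single probe, that of Thy1, a gene that T cells express too, at 9.45 and 10.5 against 9.60 and 6.37. Of the 10 markers 4 (Pdgfrb, Des, Tcf21 and Dpt) were at the floor on all 4 arrays. At an unadjusted p under 0.05, 1 of the 6 tested was lower (Pi16, by -3.09), beside 5.59% of all probes. At that threshold 0 were higher (3.99% of all probes), and the median was -0.14. Pdgfra gave a difference of -0.12 and Acta2, smooth muscle actin, one of -0.03. Markers of monocyte-derived macrophages had sums of 122 and 53.7 against 130 and 84.5 and a median of 0.43. The single probe of Apoe made up much of these sums, at 71.4 and 13.3 against 65.6 and 35.2. Epithelial markers had a median of -0.34, with 6 of 10 lower on both arrays labelled S1pr2-/-. T cell markers had a median of -0.40, with 4 of 7 lower on both. The share of all probes lower on both was 21.8%. At an unadjusted p under 0.05, 2 epithelial markers (Krt18 and Ager) and 2 T cell markers (Lck and Cd28) were lower, beside 5.59% of all probes. Among the markers of endothelial, B and mast cells and platelets, 0 were lower at that threshold. Only Jchain of antibody-secreting cells (2.13) was higher, beside 3.99% of all probes. The 6 B cell markers, Jchain among them, had a median of -0.69 and sums of 1.63 and 0.53 against 0.82 and 0.54. The part of these markers in the values of the matrix genes was not tested.

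Of the matrix glycoproteins, fibronectin and osteopontin were among the 5 of the 49 genes with the highest probe signal, and their differences were small. Fn1 read 6.74 and 6.72 in wild-type against 6.63 and 6.59. Both arrays labelled S1pr2-/- were lower by a narrow margin, with a difference of -0.12 (95% confidence interval -0.29 to 0.05, adjusted p = 0.582). Spp1, which encodes osteopontin, an adhesive cytokine made by macrophages, gave 6.04 and 5.65 against 6.10 and 5.81, which overlapped, and the difference was 0.11 (interval -0.48 to 0.70). Sparc, a collagen-binding glycoprotein that regulates fibril assembly, was lower, at 1.46 and 1.16 against 0.87 and 0.68. The difference of the means was -0.53 with a standard error of 0.148 (unadjusted p = 0.0323, adjusted p = 0.514 in limma), and its second probe gave -0.59. Elastin, Eln, overlapped close to the floor (difference -0.36). Tenascin-C (Tnc) and periostin (Postn), both typical of myofibroblast-rich tissue, were not well above background on any array, and fibrillin (Fbn1) was so on S1pr2-/- replicate 1 alone.

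Cross-linking enzymes join matrix chains, the lysyl oxidases through oxidized lysines and the transglutaminases through glutamine and lysine. Tgm1, the transglutaminase known from keratinocytes, had the lowest unadjusted p of the 39 genes, with -3.07 and -2.82 in wild-type against -3.52 and -3.43. The arrays of a genotype lay within 0.25 of each other, and the difference was -0.53 (standard error 0.116, unadjusted p = 0.0159, adjusted p = 0.509). Tgm2, the tissue transglutaminase and a marker of alternatively activated macrophages, was another of the 5 genes with the highest probe signal, at 6.06 and 5.94 against 5.88 and 5.78. It was lower on both arrays labelled S1pr2-/- by -0.17 (95% confidence interval -0.41 to 0.07), with -0.06 from a second probe. Lox was well above background on none of the arrays, and Loxl2 and Loxl3 overlapped between the genotypes.

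The hyaluronan synthases Has1 and Has2 were not well above background on any array. The hyaluronan receptor Cd44 overlapped, with 4.87 and 4.95 against 4.68 and 5.05 and a difference of -0.04 (95% confidence interval -0.51 to 0.43). Gpnmb, a glycoprotein of lipid-laden and scar-associated macrophages, read 4.43 and 4.15 in wild-type against 4.53 and 4.60, higher on both by 0.28 (interval -0.10 to 0.65).

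**Figure D4:**
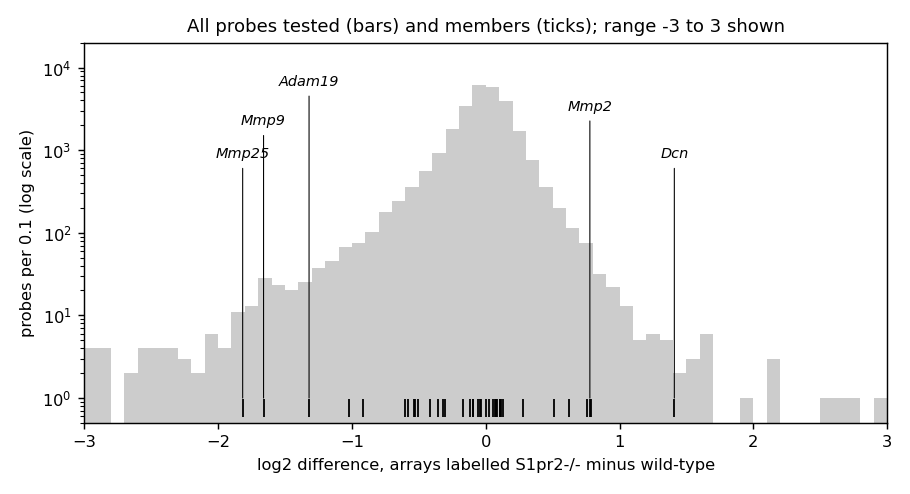
Number of probes (log scale) per 0.1 of log2 difference, arrays labelled S1pr2-/- minus wild-type, over the 27161 probes tested and drawn from -3 to 3, with 38 of the genes described here as ticks at the foot (Col5a1, at the floor, is not drawn). The median absolute difference was 0.304 over the 39 genes, beside 0.117 over all probes.

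The behavior of single arrays runs through these groups. Of the 39 genes, 9 differed by over 0.5 between the arrays labelled S1pr2-/- and 7 between the wild-type arrays, and S1pr2-/- replicate 1 was above replicate 2 for 26. The same counts over all probes are not given here, so these do not show whether the gaps are particular to these genes. The 4 genes that were at least 2-fold lower were Mmp25, Mmp9, Adam19 and Adam8, and each had a gap over 0.9 between the arrays of one of the genotypes; the share of all probes at least 2-fold lower was 1.24%. The 1 gene at least 2-fold higher was Dcn, beside 0.180% of all probes.

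A further 79 genes of the same biology, none of them among the 49, were read from the same fit: other metalloproteinases and inhibitors, other collagens, other matrix proteins, enzymes of collagen processing, and genes of matrix uptake and hyaluronan turnover. Of these, 58 were tested, 13 were lower (22.4%, against 21.8% of all probes) and 14 higher (24.1%, against 20.0%) on both arrays labelled S1pr2-/-, and the median was -0.0064. At an unadjusted p under 0.05, 3 were lower (5.17%, against 5.59%) and 2 higher (3.45%, against 3.99%), shares close to those of all probes, and 0 passed after adjustment. Lama5, a laminin chain of basement membranes, had -0.79 and -0.54 in wild-type against -1.36 and -1.39, a difference of -0.71 (standard error 0.109, unadjusted p = 0.00554, adjusted p = 0.509). Col14a1, a fibril-associated collagen, gave -1.94 and -1.67 against -1.31 and -1.0, a difference of 0.65 (standard error 0.167, unadjusted p = 0.0259, adjusted p = 0.514). Neither gene overlapped between the genotypes. The other 3, named after their values were seen, were Mmp23 (-0.25), Serpinh1, the collagen chaperone (-0.52), and Ecm1, a matrix glycoprotein (0.43).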

How the data were processed

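RNA of BALF cells from 2 wild-type and 2 S1pr2-/- samples was measured on 1 slide in 1 scan, so no batch could be tested. The authors deposited the intensity of each spot, with background corrected by Feature Extraction (10.7.3.1 per the labels, 11.0.1.1 per the file headers), and a table of log2 values of the same arrays, used as an alternative. Here the intensity was divided by the 75th percentile of its array, a floor of 0.01 was set, log2 was taken and spots of a probe were averaged. Spots with an outlier flag (115 to 273 per array) were left out, and 0 were saturated. Probes with a value on every array that were well above background in both replicates of a genotype (27161) were tested with limma 3.58.1 in R 4.3.3 with Benjamini-Hochberg adjustment over all of them. The number of arrays limits the precision. RefSeq accessions named 69.6% of the probes. The array design uses another build than the GRCm38.p6 promoter table, so no probe coordinates are given.

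The 49 genes and the lists of other matrix genes and cell type markers were chosen with earlier results of these data known. Values on every array are given for tested genes with an unadjusted p under 0.05 or a 1.5-fold difference, for those above background in a single genotype, and for the 5 brightest; other matrix genes are named at a 1.5-fold difference with an unadjusted p under 0.05. The alternatives changed the normalization (quantile, cyclic loess, or the 75th percentile of detected probes alone), the background correction (normexp with offset 50, on the median spot signal, since the mean was not in the files used here), the values (the authors' log2 table), the floor, the filter, the outlier flags, the variance model, the test (the methods' t-test), the replicate number as a block, the probe and the arrays used. Scripts were tested on simulated data. Protein sequences were not used here.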

Additional observations from a re-analysis of the deposited data

How the results depend on the processing

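The lower calls at an unadjusted p under 0.05 numbered 7 in limma. They numbered 8 with cyclic loess and 9 with normexp, the authors' log2 values, no floor and a trended variance. With only probes detected on all 4 arrays they were also 9. After quantile normalization they were 5. They were 4 with the percentile over detected probes and without a filter on dim probes, and 3 by the methods' t-test. The higher calls numbered 1, and 0 with the percentile over detected probes, without a filter and by the methods' t-test. They numbered 2 after quantile normalization, with the authors' log2 values, no floor and only probes detected on all 4 arrays, and 3 with normexp. None of the 49 genes passed an adjusted p of 0.05 under any alternative run. The replicate numbers are not stated to pair arrays, and same-numbered arrays deviated together only weakly (r = 0.187 over 2 pairs); with the replicate number as a block, 5 genes were lower and 2 higher at an unadjusted p under 0.05. The median difference was 0 with quantile normalization and without a filter, 0.0012 with normexp and -0.012 with the mean of all probes of a gene. With an array left out it lay between -0.095 and 0, and 17 to 20 genes were lower and 10 to 14 higher on all arrays labelled S1pr2-/-. Groups of 2 arrays and 1 array are apart more easily than groups of 2 and 2. These counts can therefore not be set beside the 16 and 8 of all 4 arrays.

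Directions turned for genes close to 0. Mmp14 gave 0.011 with quantile normalization and 0.0012 with normexp, Col4a1 0.020 and 0.016, and Loxl2 -0.00071 with cyclic loess. Other probes turned Timp2 (0.20), Vcan (0.44), Loxl2 (-0.027) and Cd44 (0.022). With an array left out, the differences ranged from -0.26 to 0.17 for Mmp14, -0.29 to 0.18 for Timp2, -0.020 to 0.13 for Adam9, -0.026 to 0.074 for Adam15, -0.089 to 0.30 for Col4a2, -0.083 to 0.30 for Spp1, -0.72 to 0.0023 for Eln, -0.11 to 0.26 for Bgn, -0.032 to 0.039 for Loxl2, -0.26 to 0.48 for Loxl3 and -0.22 to 0.14 for Cd44. No other gene tested turned. The cause of these changes was not tested. Over all probes, the lower and higher calls at an unadjusted p under 0.05 were 1518 and 1083 in limma. They were 1055 and 1693 after quantile normalization, 1424 and 1671 when detected probes alone set the percentile, and 1166 and 1267 with normexp. Cyclic loess gave 1516 and 1061, the authors' log2 values 1491 and 978, and no floor 1464 and 945. A trended variance gave 1608 and 1111, the replicate block 1456 and 975, and the methods' t-test 1066 and 995. Without a filter they were 1590 and 1448 of 39359 probes, and with only probes detected on all 4 arrays 1471 and 862 of 25759. Leaving out an array assumes that the lone array of its genotype varies like the others.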
